A study of Drosophila melanogaster with 4 samples.

Results

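The Drosophila sex determination cascade was followed through 10 genes chosen by name: Sxl, tra, tra2, dsx, fru, ix, her, snf, fl(2)d and vir. The deposited table lists 17103 genes, of which 12679 had a mean count above 0, and all 10 were among these. RNA came from gonads of stage 17 embryos grown at 25 °C for 18 to 22 h, in 2 control samples with the genotype vas-GFP and 2 Phf7 mutant samples with the genotype Phf7[DN18]; vasGFP. Controls and mutants both carry the green fluorescent vas transgene, which marks germ cells. Whole gonads were freed from many homogenized embryos and sorted by their fluorescence, so that a sample pools animals and, as the sources used here name no sexing step, XX and XY embryos were not told apart. The gonads hold somatic cells as well as germ cells, and in such bulk RNA fewer cells of a type and less RNA per cell cannot be told apart.

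In flies the number of X chromosomes decides whether Sex lethal (Sxl), an RNA-binding switch protein, is made. In females Sxl directs the splicing of its own transcript and of transformer (tra). Tra with its partner Tra2 then directs the female splicing of doublesex (dsx) and fruitless (fru), which act in sexual development. Male and female transcripts of these genes differ by splicing, while a library of 3′ ends counts whichever forms end in a gene together. In the germ line Sxl also acts in female identity, and Phf7, the gene deleted here, is a chromatin reader of the male germ line.

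The question put to the data was whether the level of any cascade gene differed between Phf7 mutant and control gonads. The table gives 1 mean count per gene over the 4 libraries, and reads per library were recovered from its printed digits. Libraries are called control a, control b, mutant a and mutant b because the means carry no replicate number. Recovered genes with a mean up to 1000 held 1536698 to 2130832 reads per library and 17.4% of the mean total of 10687188. Phf7 itself had 749 and 495 reads in control gonads against 9 and 44 in mutant gonads, a log2 difference of -5.16 with a standard error of 0.73 (limma, adjusted p = 0.297), which fits the labels by direction and does not pass the threshold of 0.05. Whether the deletion takes out the 3′ end that these libraries read is not given in the sources used here.

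The 2 libraries of a genotype differed from each other in markers of tissues outside the gonad. Summed normalized reads of 11 muscle markers were 1002 in control a, 3319 in control b, 4563 in mutant a and 1153 in mutant b. Neuron markers (7 genes, 709.3, 2172, 4334 and 956 reads) and midgut markers (6 genes, 238.8, 2481, 1962 and 428.5 reads) were also high in control b and mutant a and low in the other libraries. Of 10 germ cell markers 6 had recovered reads, with sums of 3386, 3082, 3220 and 3397, while vas, piwi, tud and ovo were too abundant for recovery. The 6 did not move together: nos and aub were higher and zpg lower in both mutants than in both controls, without passing the test. Over all genes tested, 15.4% were higher and 17.5% lower in both mutants than in both controls. Of 10 somatic gonad markers the abundant tj, zfh1, fax and bnb were likewise not recovered. The other 6 summed to 3675 and 3490 reads in control gonads against 2701 and 2691 in mutant gonads. Of the 6, 3 were lower in both mutants, beside 17.5% of all genes tested, and Abd-B had the higher mean in the mutants. In limma 0 of the 6 had an unadjusted p under 0.05. The sums leave out the most abundant markers: the highest mean count among the 6 was 995 (Fas3), and the lowest of those not recovered was 2260 (zfh1).

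No gene of the cascade passed the test between genotypes. Normalized reads are reads divided by the library's size factor, and differences are given on the scale of log2(normalized reads + 1), mutant minus control. The test covered genes with recovered reads and so left out the 1471 genes with a mean over 1000 except Sxl and fru. In limma, 0 of the 10 genes had an adjusted p under 0.05, where 0 of all 7655 genes tested (0%) did, and 0 of the 10 had an unadjusted p under 0.05, where 447 of all genes (5.84%) did. The lowest adjusted p of any gene was 0.0579, and limma-voom also called 0 genes, with 392 at an unadjusted p under 0.05. Even Phf7, the gene deleted in the mutants, was not called (limma, adjusted p = 0.297). A gene not called here may therefore still differ between genotypes. In every one of the 10 genes, with either set of Sxl reads described below, the range of the mutants overlapped that of the controls. Over all genes tested, both mutants lay above both controls in 15.4% and below them in 17.5%. The median log2 difference of the 10 genes was 0.14, against 0.01 over all genes tested. With 2 libraries per genotype, p-values rest on the spread between these samples only. For each gene, limma draws that spread towards a trend over all genes tested.

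**Figure D1:**
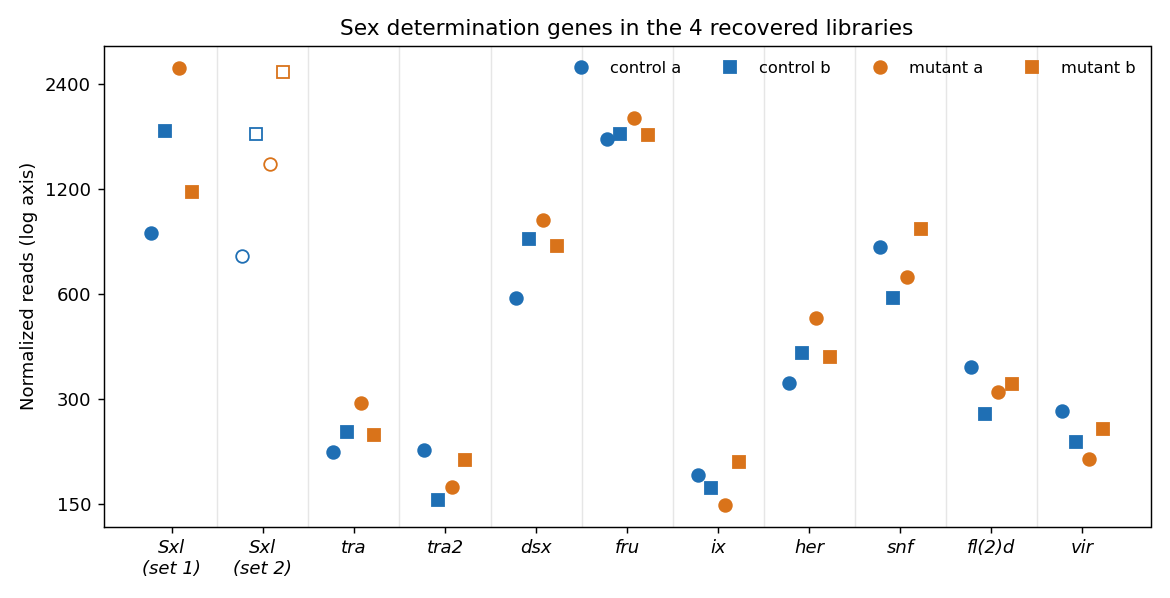
Normalized reads (log axis) of the 10 sex determination genes in each library, with blue points for controls and orange points for Phf7 mutants. Each gene has 1 column, and Sxl has a second column with open points for the other set of reads that gives its printed mean. Control and mutant ranges overlap for all 10 genes.

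Sxl, the switch at the head of the cascade, had a mean count of 1631, which is too high for its reads to follow from the digits alone. A set of 884 and 1456 reads in control gonads against 3024 and 1321 in mutant gonads gives the printed mean. A second set of 757 and 1422 against 1605 and 2923 gives it as well. In both sets control a was the lowest library, control b lay above a mutant, and the mutant mean was the higher one, but the sets disagree on which mutant library was high.

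The first set was used because it alone keeps the highest normalized value within 3 times the lowest. That choice is narrow, since the ratio was 2.98 in the first set and 3.39 in the second. Among means with no true solution, 26.4% of 500 had some set within a limit of 3 times, so the Sxl reads per library stay uncertain. Normalized reads of the first set were 898.3 and 1769 in the controls against 2679 and 1177 in the mutants, a mutant to control ratio of 1.45. The log2 difference was 0.49 with a standard error of 0.49 (95% interval -0.72 to 1.71, adjusted p = 0.975), and a fold between 0.606 and 3.27 was within the interval. The second set gave a ratio of 1.61 and a log2 difference of 0.74 (adjusted p = 0.975).

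The Sxl difference rested on single libraries. Without mutant a the log2 difference of the first set was -0.10 and without control a it was 0.00544, while without control b it was 0.98 and without mutant b it was 1.09. Adding the mean log2 level of the muscle, neuron and midgut markers as a covariate, which leaves 1 residual degree of freedom, gave Sxl a log2 difference of 0.31 with an adjusted p of 0.0394, and 0.72 with an adjusted p of 0.0101 for the second set. The same fit called 664 of all genes (8.67%), or 652 (8.52%) with the second set. Sxl was the only one of the 10 genes called in that fit. Phf7 was called there too, at a log2 difference of -4.94 (limma with the covariate, adjusted p = 3.0e-15, or 2e-14 with the second set). With 1 residual degree of freedom, the p-values of that fit lean on the variance that limma shares over all genes tested. This holds for Sxl as for Phf7. Without the covariate the smallest adjusted p that Sxl reached in any setting was 0.88. Sxl is also used in neurons, and the neuron marker elav had 348, 506, 1078 and 469 reads in control a, control b, mutant a and mutant b. Summed normalized reads of the 7 neuron markers differed more than elav, at 709.3, 2172, 4334 and 956 in the same order. The part of other tissues in the Sxl level was not tested.

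The splicing regulators downstream of Sxl, tra and tra2, did not pass the test between genotypes. The tra gene, whose functional protein is made in females, had 207 and 198 reads in control gonads against 330 and 265 in mutant gonads. Normalized, these were 210.3 and 240.6 against 292.3 and 236.1, so that mutant a stood highest and mutant b lay between the controls. The log2 difference of tra was 0.22 with a standard error of 0.26 (95% interval -0.43 to 0.88, adjusted p = 0.975), and it ran from 0.07 without mutant a to 0.38 without mutant b. Its partner tra2, which both sexes express, had 211 and 126 reads in control gonads against 189 and 224 in mutant gonads. Normalized tra2 reads were 214.4 and 153.1 against 167.4 and 199.6, and both mutants lay between the controls. The tra2 log2 difference was 0.01 with a standard error of 0.31 (95% interval -0.76 to 0.79, adjusted p = 0.995), and it changed sign when control b or mutant b was left out.

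At the end of the cascade dsx and fru encode transcription factors, and their transcripts are spliced by sex. Reads of dsx were 573 and 711 in control gonads against 1103 and 924 in mutant gonads. After normalization the values were 582.3 and 863.8 against 977 and 823.2, with control a alone at the low end and mutant b below control b. The dsx log2 difference was 0.34 with a standard error of 0.25 (95% interval -0.30 to 0.97, adjusted p = 0.975), and it was 0.05 without control a and 0.62 without control b. Its smallest adjusted p in any setting without the covariate was 0.855, and the mutant to control ratio was 1.25.

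The fru gene, known for the male courtship circuit in the nervous system, had a mean count of 1760, and here 4 sets of reads give the printed mean to within 0.75 of its last digit. Only 1 of them keeps the highest normalized value within 5 times the lowest, at a ratio of 1.15. In the others the mutant to control ratio was 0.462, 0.412 and 0.969, with the highest value at least 10.97 times the lowest. With a match to within 1 of the last digit there are 6 sets, and a second one lies within 5 times, at a ratio of 4.74 with 1549 and 1686 normalized reads in the controls against 663.4 and 3143 in the mutants. As 9.6% of 500 means with no true solution had a set within 2 times, the fru reads are uncertain too. In the set with the ratio of 1.15, fru had 1651 and 1422 reads in control gonads against 2168 and 1926 in mutant gonads, or 1678 and 1728 against 1920 and 1716 after normalization. Mutant a was the highest library and mutant b lay between the controls. The log2 difference of fru was 0.09 with a standard error of 0.16 (95% interval -0.30 to 0.48, limma, adjusted p = 0.975). Folds from 0.815 to 1.40 were inside the interval. The difference ran from 0.01 without mutant a to 0.17 without mutant b. These values hold only for this set, which was taken for its small range.

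The products of ix and her work at the level of dsx: Ix is a cofactor of the female Dsx protein, and Her is a zinc finger protein that acts in female differentiation. Reads of ix were 178 and 137 in control gonads against 168 and 221 in mutant gonads, normalized to 180.9 and 166.4 against 148.8 and 196.9. The controls lay between the mutants, and the ix log2 difference was -0.02 with a standard error of 0.30 (95% interval -0.76 to 0.72, adjusted p = 0.994). Reads of her were 327 and 335 in control gonads against 579 and 445 in mutant gonads, normalized to 332.3 and 407 against 512.9 and 396.5. Mutant a was the highest and control a the lowest library for her. The log2 difference of her was 0.29 with a standard error of 0.25 (95% interval -0.33 to 0.91, adjusted p = 0.975), and it ran from 0.11 without mutant a to 0.48 without mutant b.

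**Figure D2:**
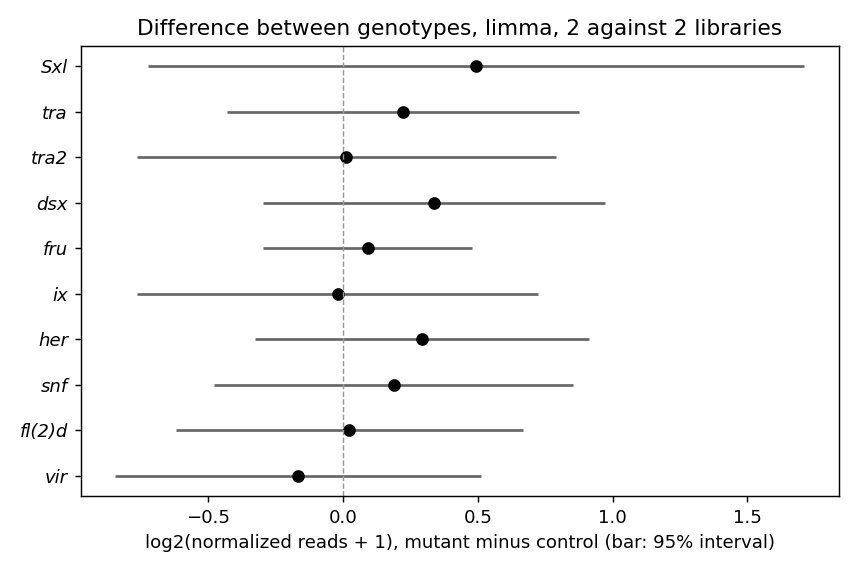
Log2 difference, mutant minus control, of the 10 sex determination genes from the limma fit over all genes, with 95% intervals (bars) on the x axis and 1 line per gene. Every interval holds 0, with the widest for Sxl (-0.72 to 1.71) and the narrowest for fru (-0.30 to 0.48). The Sxl and fru intervals hold only for the sets of reads used, and that of fru was taken for its small range.

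The cofactors of Sxl splicing are general parts of the RNA machinery. The snf gene encodes the fly protein of the U1 and U2 spliceosomal particles on which Sxl autoregulation depends. It had 803 and 480 reads in control gonads against 758 and 1033 in mutant gonads, normalized to 816 and 583.2 against 671.4 and 920.3. Mutant b was highest and control b lowest. The log2 difference of snf was 0.19 with a standard error of 0.27 (95% interval -0.48 to 0.85, adjusted p = 0.975), and it was -0.05 without control b and -0.04 without mutant b.

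Both fl(2)d and vir encode subunits of the complex that places N6-methyladenosine, a methyl mark, on messenger RNA, and both are needed for female splicing of Sxl. Reads of fl(2)d were 365 and 223 in control gonads against 355 and 371 in mutant gonads, normalized to 370.9 and 270.9 against 314.4 and 330.5. Both mutants lay between the controls, and the log2 difference was 0.02 with a standard error of 0.26 (95% interval -0.62 to 0.67, adjusted p = 0.993). Reads of vir were 273 and 185 in control gonads against 227 and 276 in mutant gonads, normalized to 277.4 and 224.8 against 201.1 and 245.9. Mutant b lay between the controls and mutant a below them. The vir log2 difference of -0.17 had a standard error of 0.27 (95% interval -0.84 to 0.51, adjusted p = 0.975), and it ran from -0.32 without control b to -0.02 without control a.

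Within genotypes the 10 genes fell into 2 groups of 5. Sxl by its first set of reads, tra, dsx, fru and her were higher in control b than control a and higher in mutant a than mutant b, a direction that 2747 of all genes tested (35.9%) shared. It is also the direction of 11 of 11 muscle markers, 7 of 7 neuron markers and 5 of 6 midgut markers. The other 5 genes, tra2, ix, snf, fl(2)d and vir, were higher in control a and mutant b, as were 2806 of all genes (36.7%). With the second set of reads Sxl was higher in mutant b and joined neither group. The grouping was seen in the data and is a description of 4 libraries.

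On the log2 scale control b exceeded control a by 0.98 for Sxl, 0.57 for dsx, 0.29 for her, 0.19 for tra and 0.04 for fru. Mutant a exceeded mutant b by 1.19, 0.25, 0.37, 0.31 and 0.16 in the same order of genes. For the genes of the opposite direction the control b minus control a differences ran from -0.48 (snf and tra2) to -0.12 (ix), and the mutant a minus mutant b differences from -0.45 (snf) to -0.07, for fl(2)d. The muscle gene Mlc2 and the neuron marker elav, by comparison, differed by 2.22 and 0.80 between the controls and by 2.11 and 1.19 between the mutants. The 7 neuron markers together differed more than elav, with summed normalized reads of 709.3 and 2172 in controls a and b and 4334 and 956 in mutants a and b. For tra2, ix and fl(2)d, whose log2 differences between genotypes were 0.01, -0.02 and 0.02, the difference within the controls was larger in size (-0.48, -0.12 and -0.45), and so was that within the mutants (-0.25, -0.40 and -0.07). For Sxl by its first set both were larger than its 0.49 between genotypes. Both were also larger in size for snf (0.19 between genotypes, -0.48 within the controls and -0.45 within the mutants). The same held for vir (-0.17 between genotypes, -0.30 and -0.29 within). For tra, dsx, fru and her it did not hold for both. The part of muscle, neuron or midgut RNA in the levels of the cascade genes was not tested.

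**Figure D3:**
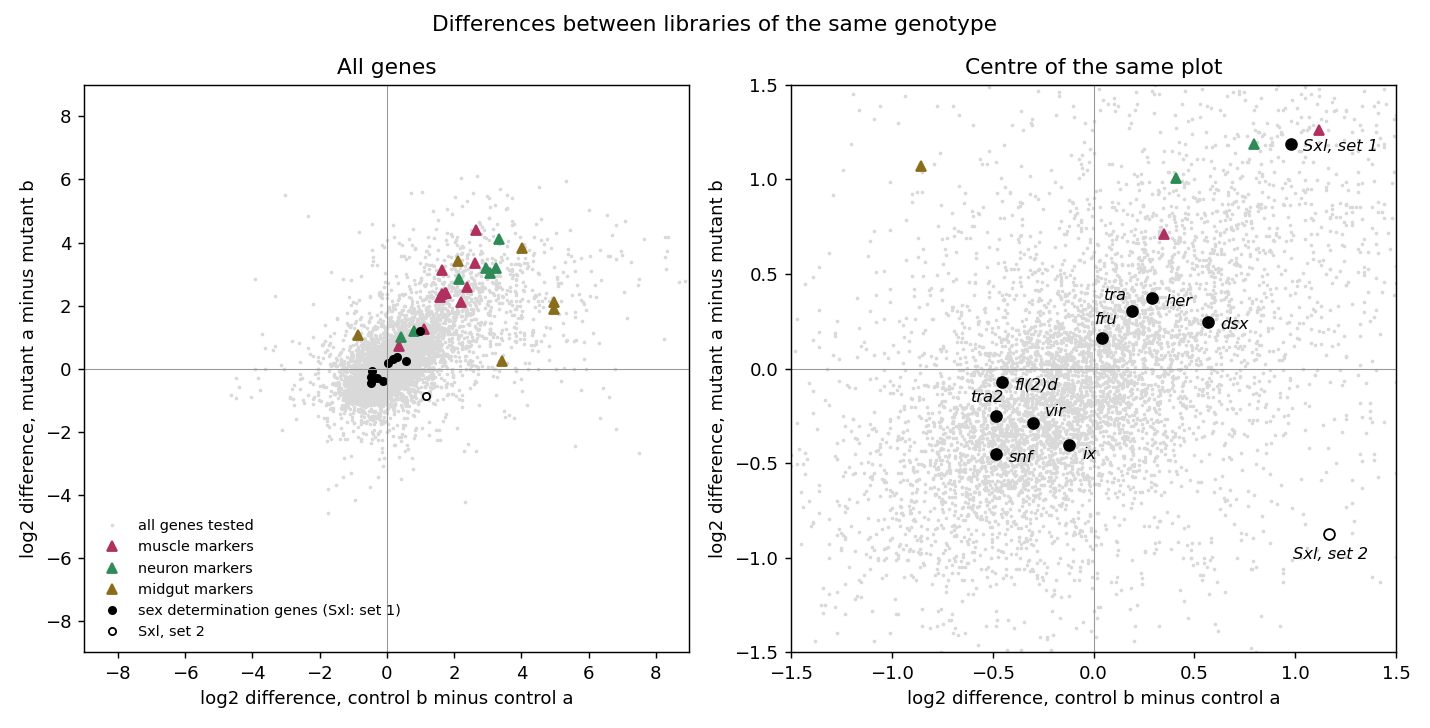
Log2 difference between the controls (x axis, control b minus control a) against that between the mutants (y axis, mutant a minus mutant b) for all genes tested (grey), tissue markers (triangles) and the 10 sex determination genes (black), with the right panel showing the centre of the left one. Sxl by its first set of reads, dsx, her, tra and fru lie in the quadrant that holds the muscle, neuron and all but 1 of the midgut markers, the other 5 genes lie in the opposite quadrant, and Sxl by its second set (open point) lies in neither.

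The X-counting genes, activators and repressors alike, decide in the early embryo whether Sxl is switched on, well before the stage sampled. Of 8 such genes 7 were detected and sc was listed at 0. The highest mean counts were those of gro, a corepressor, at 2833 and of da, a broadly used helix-loop-helix factor, at 2198, whose reads per library were not recovered. The only X-counting gene tested was upd1, a ligand of the JAK/STAT pathway that also marks the gonad's soma. It had 661 and 384 reads in control gonads against 239 and 494 in mutant gonads or, normalized, 671.7 and 466.5 against 211.7 and 440.1. Both mutants lay below both controls, as in 17.5% of all genes tested, and the log2 difference of upd1 was -0.87 (adjusted p = 0.944). Early activators were near the detection limit, with sisA at 9, 9, 0 and 1 reads and run at 0, 1, 6 and 2 reads in control a, control b, mutant a and mutant b, too few to be tested. Of the X-counting genes, sisA and run were singled out after their values were seen, and so was upd1.

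All 6 further genes of the methylation machinery and its reader were measured, and 0 were called. Their median log2 difference was 0.20. Hakai, a subunit of the methylation complex, had 567 and 453 reads in control gonads against 734 and 784 in mutant gonads, and both mutants lay above both controls after normalization (576.2 and 550.3 against 650.1 and 698.5). Its log2 difference was 0.26 with a standard error of 0.19 (adjusted p = 0.975). Ythdc1, the nuclear reader of the mark, listed under its older name YT521-B, had 387 and 402 reads against 581 and 562, and here too the normalized values did not overlap (393.3 and 488.4 against 514.6 and 500.7). The Ythdc1 log2 difference was 0.21 with a standard error of 0.22 (adjusted p = 0.975). Hakai and Ythdc1 were the 2 of 6 genes without overlap, beside 15.4% of all genes with both mutants higher. Within genotypes, 5 of the 6 were higher in control a and mutant b, the direction of fl(2)d and vir and of 36.7% of all genes tested.

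Of 10 general splicing factors that work with Sxl, Tra or Tra2, all 10 were detected, and 0 of the 4 tested were called. The SR proteins B52 and SF2 had the highest mean counts in this list, at 4342 and 2665, without reads per library. The median log2 difference of the 4 tested was -0.04. Among 13 targets of the cascade and relatives of its genes, 12 were detected, dsf was listed at 0, and 0 of the 5 tested were called, with a median of 0.36. Unr, which works with Sxl in repressing msl-2, had a mean count of 5519 and bab2, a transcription factor downstream of dsx in the adult abdomen, one of 1878. The dosage compensation gene msl-2, chosen here as a direct target of Sxl, had 36 and 26 reads in control gonads against 43 and 57 in mutant gonads or, normalized, 36.58 and 31.59 against 38.09 and 50.78 (log2 difference 0.36, adjusted p = 0.975). Both mutants lay above both controls for msl-2, the 1 gene of the 5 tested without overlap, beside 15.4% of all genes tested with both mutants higher. At so few reads the counting error of msl-2 is large.

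Of 6 genes listed for the germline regulation of Sxl, 4 were tested and 0 called, and the median log2 difference was 0.22. Phf7 was put on this list as the check of the genotype, and whether it acts on Sxl was not tested. As the gene deleted in the mutants, it was the 1 gene of the 4 with an unadjusted p under 0.05 in limma. The share over all genes tested was 5.84%. Phf7 was lower, and otu and stil were higher, in both mutants than in both controls. Of all genes tested, 17.5% were lower and 15.4% higher in this way. Log2 differences were 0.35 for otu and 0.39 for stil (limma, adjusted p = 0.975 for each). The highest mean counts in this list were those of egg, a histone methyltransferase that keeps the female germline from expressing Phf7, at 1288, and of ovo, a germline transcription factor, at 1135.

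**Figure D4:**
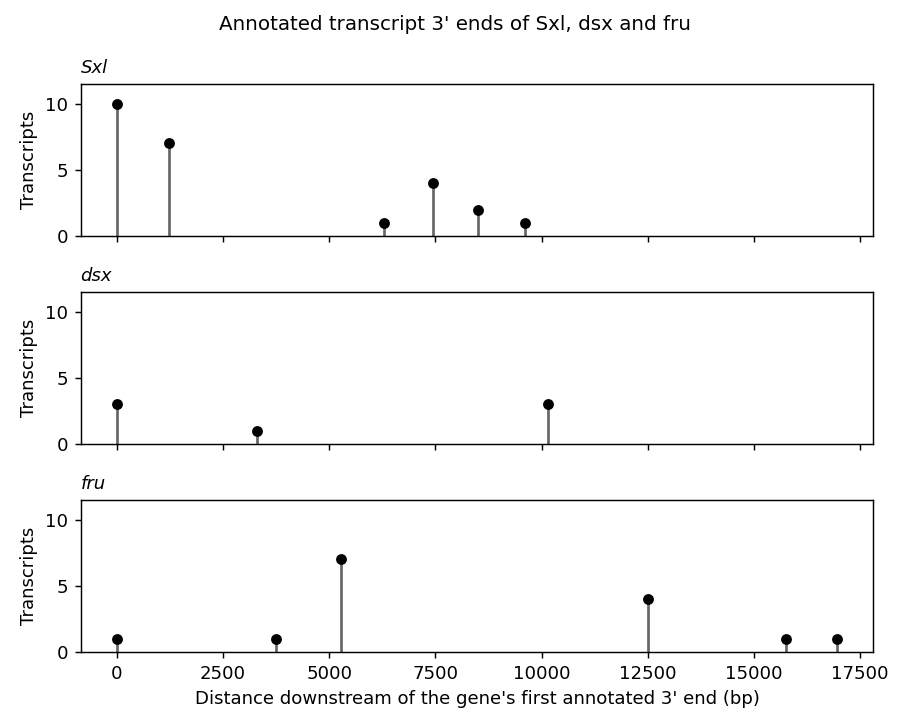
Annotated transcript 3′ ends of Sxl, dsx and fru: each line marks a distinct end, its height is the number of annotated transcripts that stop there (y axis), and the x axis is the distance in bp downstream of the gene's first annotated end. Sxl has 6 ends over 9614 bp, dsx 3 over 10159 bp and fru 6 over 16960 bp.

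Where transcripts end bears on what these libraries count. Positions are from the Ensembl annotation BDGP6.54, which shares its coordinates with the dm6 build the authors mapped to. Sxl (FBgn0264270) lies at X:7074550-7098053 on the minus strand and has 25 annotated transcripts with 6 distinct 3′ ends over 9614 bp. The dsx gene (FBgn0000504) lies at 3R:7924323-7967408 on the minus strand, with 7 transcripts and 3 ends over 10159 bp. The fru gene (FBgn0004652) spans 3R:18414273-18545586 on the minus strand, with 15 transcripts and 6 ends over 16960 bp. For these genes the count per gene sums all ends, and a shift from one form to another would not show in it.

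The remaining genes are compact. On the minus strand lie tra (FBgn0003741) at 3L:16590059-16591050, tra2 (FBgn0003742) at 2R:14602004-14604337, ix (FBgn0001276) at 2R:11359437-11360163, fl(2)d (FBgn0000662) at 2R:13819624-13824553 and vir (FBgn0003977) at 2R:23360192-23366355. On the plus strand lie her (FBgn0001185) at 2L:16677185-16679691, with 2 ends 308 bp apart, and snf (FBgn0003449) at X:5309242-5310501. In tra, tra2, ix, snf, fl(2)d and vir all annotated transcripts share 1 end, so the female and male splice forms of tra fall into 1 count.

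Exons of 4 of the 10 genes overlap a protein-coding neighbour on the opposite strand, and non-coding neighbours were not looked at. These are tra with l(3)73Ah over 74 bp, tra2 with Blos1 over 7 bp, dsx with lds over 169 bp and vir with Mthfs over 75 bp. The strand setting of the counting is not given in the sources used here, so reads of these pairs are uncertain where they overlap. The neighbour of tra, l(3)73Ah, had 493, 297, 517 and 499 reads in control a, control b, mutant a and mutant b, and that of dsx, lds, had 436, 357, 537 and 503. The part of the neighbours in the counts of tra and dsx was not tested.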

How the data were processed

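Gonad RNA was made into 3′-end libraries (QuantSeq). The authors used HISAT2 for mapping to dm6, HTSeq for counting and DESeq2 for the comparison, and the submitters' processing notes also name Cufflinks. Tool versions, the annotation and the strand setting were not given in the sources used here. Per gene, the deposited table holds a signal, which is the authors' mean of the normalized counts of all 4 libraries, and columns of the authors' comparison (a log2 fold change, control relative to mutant, with standard error, Wald statistic, p-value and adjusted p). None of these comparison values was used, except that the fold change's sign at genes for which only 1 read was counted told which recovered libraries were control.

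To recover reads, each mean was searched for a set of 4 whole numbers, 1 per library, that returns it to within 1 of the last digit. Exactly 1 such set was found for 11208 of 11208 genes with a mean between 0 and 1000, and for 9 of 1500 decoy means (0.6%) any was found. For Sxl and fru, with means up to 2500, the match was within 0.75 of the last digit and a set was taken when it alone kept the highest normalized value within 3 times the lowest. Recovered sets are inferred from the means, and the other genes with a mean over 1000 were not recovered or tested. Counts below about 10 carry large counting error.

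The study's DESeq2 test was not rerun on the recovered reads. In its place the same design without covariates was fitted with limma 3.58.1 in R 4.3.3 (lmFit, eBayes with trend). The fit took log2(normalized reads + 1) of 7655 genes, those with a mean from 10 to 1000 with Sxl and fru added. Benjamini-Hochberg adjustment was over all of them, with a threshold of 0.05. The fit was tested on simulated data. Named genes were the 10 members, and from each list the 2 genes with the highest mean and any past the threshold; others are named as such. Members and lists were chosen with earlier results of these data known. Alternatives were other pseudocounts, minimum means and scalings, limma-voom, a marker covariate, each library left out, and, chosen after seeing the data, the match width, the other Sxl set and the within-genotype differences.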

Additional observations from a re-analysis of the deposited data

How the results depend on the processing

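Counts of genes called between genotypes were 0 in most settings. Scaling by total recovered reads gave 2, the marker covariate 664 and the covariate with the other Sxl set 652, and of the 10 cascade genes the covariate called 1 (Sxl) with either Sxl set. A ratio limit of 2 accepted 0 sets of Sxl reads and a limit of 5 accepted 2. The log2 difference of ix turned to 0.03 with upper quartile scaling (0.0268) and with the covariate (0.0264), and that of tra2 to -0.00361 with limma-voom. Leaving out 1 library at a time moved ix between -0.22 and 0.18, tra2 between -0.23 and 0.25, snf between -0.0538 and 0.43, fl(2)d between -0.20 and 0.25 and Sxl between -0.10 and 1.09; the cause was not tested. The lone library left in a genotype is assumed to vary like the others. Other pseudocounts and minimum means changed no direction and no call. No paired analysis was possible because the recovered libraries carry no replicate number. Reads per library limit the lowest genes, and those of Sxl are not settled.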
